A study of Homo sapiens with 6 samples.

Results

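Cholesterol and fatty acid synthesis genes encode the enzymes that build sterols and fatty acids from acetyl-CoA, and the regulators that set their transcription. The 34 genes were listed by symbol for their place in the pathway, with earlier results of these data known. Of these, 33 had a row of their own among the 24551 gene symbols of the files, and all 33 were among the 11865 genes tested, those that averaged 1 FPKM or more across the 6 libraries. TM7SF2, a sterol reductase, is listed only in a joint row with its neighbour VPS51, so none of its levels or changes is counted below. FPKM is the number of sequenced fragments divided by transcript length and by the mapped fragments of the library, a level and can be compared between genes.

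RNA-Seq was performed on polyadenylated RNA of 2 human cancer cell lines, DU145 (labelled prostate carcinoma, derived from a brain metastasis) and 769-P (labelled renal cell adenocarcinoma). Each line gave a control siRNA library (labelled NC), a SPOP siRNA 1 library and a SPOP siRNA 2 library, 3 in all. SPOP is the substrate adaptor of a CUL3 ubiquitin ligase, and the study asked which genes respond to its loss in each cancer. Each of the 6 libraries is a single sample and no control was repeated, so a value in one library carries no replicate error, and the p-values below measure only the spread between these libraries. The study's methods give the lines different basal media with the same share of serum, so the line and its medium cannot be told apart.

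In animal cells the genes of both pathways are switched on together by the SREBP transcription factors. SREBPs are made as membrane proteins of the endoplasmic reticulum, where SCAP escorts them to the Golgi for cleavage when sterols are low and INSIG proteins hold them back when sterols are high. The freed factors bind sterol regulatory elements in promoters, usually beside NF-Y and Sp1. SREBF2 encodes the form best known for cholesterol synthesis, and SREBF1 encodes the forms known for fatty acid synthesis and for both.

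To show the sequences that such factors read, promoters from 250 bases before to 50 bases after the transcription start were read from RefSeq (GRCh38.p14, whereas the files were made on hg19). An entry was found for 30 of the 34 genes, 41 promoters in all, and none for ACAT2, FASN, FDFT1 and SQLE. Letters were searched on both strands, and none of the motifs holds another. The sterol regulatory element core TCACNCCAC was found in 1 of the 41 promoters (2.44%, against 1.13% of the 35116 promoters of all genes). The NF-Y box CCAAT was found in 26 (63.4%, against 34.6%), and the GC box GGGCGG in 37 (90.2%, against 45.0%). Printed 5′ to 3′ on the strand of the gene, with every match in capitals, are the promoters of the 3 genes that differed most between the siRNAs and have an entry, HMGCS1 (chr5:43313363-43313662, minus strand), FADS2 (chr11:61816154-61816453, plus strand) and ACLY (chr17:41918973-41919272, minus strand), that of ELOVL6, which went most the other way (chr4:110198566-110198865, minus strand), and that of SREBF2, the holder of the sterol core (chr22:41832855-41833154, plus strand).
HMGCS1: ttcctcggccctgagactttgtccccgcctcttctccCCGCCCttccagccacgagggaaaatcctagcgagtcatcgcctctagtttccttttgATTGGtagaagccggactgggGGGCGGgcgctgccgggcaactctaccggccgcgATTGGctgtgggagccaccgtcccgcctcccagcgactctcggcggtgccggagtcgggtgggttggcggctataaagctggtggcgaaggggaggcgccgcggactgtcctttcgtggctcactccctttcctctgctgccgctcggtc
FADS2: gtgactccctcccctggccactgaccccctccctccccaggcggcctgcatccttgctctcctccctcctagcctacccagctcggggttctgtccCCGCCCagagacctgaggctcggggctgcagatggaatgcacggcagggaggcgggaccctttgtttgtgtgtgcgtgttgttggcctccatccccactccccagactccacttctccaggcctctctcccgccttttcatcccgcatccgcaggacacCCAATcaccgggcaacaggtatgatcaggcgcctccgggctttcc
ACLY: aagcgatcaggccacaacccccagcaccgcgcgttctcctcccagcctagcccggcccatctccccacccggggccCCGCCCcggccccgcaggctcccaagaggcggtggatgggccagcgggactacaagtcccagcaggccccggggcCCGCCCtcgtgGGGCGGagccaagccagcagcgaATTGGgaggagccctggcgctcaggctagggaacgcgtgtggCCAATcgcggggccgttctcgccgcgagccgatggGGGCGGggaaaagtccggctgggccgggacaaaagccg
ELOVL6: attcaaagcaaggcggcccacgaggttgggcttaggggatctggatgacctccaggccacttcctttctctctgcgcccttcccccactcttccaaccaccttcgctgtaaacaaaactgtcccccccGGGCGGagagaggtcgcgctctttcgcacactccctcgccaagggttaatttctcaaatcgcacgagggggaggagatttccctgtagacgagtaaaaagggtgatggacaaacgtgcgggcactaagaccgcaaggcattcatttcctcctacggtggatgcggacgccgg
SREBF2: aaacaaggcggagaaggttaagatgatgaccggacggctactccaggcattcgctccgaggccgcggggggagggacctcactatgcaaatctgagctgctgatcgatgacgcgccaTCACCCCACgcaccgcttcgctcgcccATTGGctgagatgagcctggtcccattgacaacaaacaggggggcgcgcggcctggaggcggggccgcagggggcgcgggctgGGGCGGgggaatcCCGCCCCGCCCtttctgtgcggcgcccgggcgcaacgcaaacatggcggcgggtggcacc
HMGCS1, FADS2 and ACLY have 2 promoters each among those read, and the one with the most matches is printed. ELOVL6 and SREBF2 have 1 each, so the counts cannot be compared like for like between the genes. In the windows printed, HMGCS1 has 2 NF-Y boxes and 2 GC boxes, and ACLY has 2 and 4. FADS2 has 1 of each, ELOVL6 has a single GC box and no NF-Y box, and SREBF2 has the core, 1 NF-Y box and 3 GC boxes. A match is a description of letters, and the absence of one says nothing of what binds there.

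The targeted gene was lower in every siRNA library. SPOP was at 16.1 FPKM in the DU145 control and at 2.77 (siRNA 1) and 2.96 (siRNA 2) after knockdown, and at 11.6 in the 769-P control and 1.53 and 1.39 after knockdown. It was left at 12.0% to 18.4% of control, it fell by 2.25 on the log2(FPKM + 1) scale with each siRNA over both lines (limma, adjusted p = 0.00283 and 0.00419), and the siRNAs differed by less than the SE of 0.21 (adjusted p = 0.997). Of the markers of the labelled tissues, the renal factor PAX8 was at 106 to 125 FPKM in 769-P and at most 1.47 in DU145, whereas the prostate markers KLK3 and HOXB13 and the renal markers CA9 and LRP2 were at or near 0 in their own line. The epithelial keratins KRT8 and KRT18 were high in both lines, whereas EPCAM was at 2.95 to 4.92 FPKM in 769-P and 27.6 to 36.2 in DU145, and CDH1 was at most 0.0977 in 769-P and 8.87 to 17.7 in DU145. The blood and stroma markers PTPRC, DCN and PECAM1 were at or near 0. COL1A1, of the same list, was at 1.71, 9.68 and 7.36 FPKM in the control, siRNA 1 and siRNA 2 libraries of 769-P and at 2.89, 3.77 and 3.12 in DU145, and its part in the results was not tested. FPKM holds no read number, and the most frequent ratio of low values put the depth of the other libraries at 0.680 to 1.41 times that of the 769-P control. This ratio held from 6.27% (DU145 control) to 24.1% (769-P siRNA 1) of the low genes compared, so the depths are rough. The DU145 control and the 769-P siRNA 2 library stood apart, with 287 and 237 of 366 olfactory receptor genes above 0, against 3 to 5 in the other 4 libraries. Whether this had a part in the results was not tested, but each test was repeated with the mean of these genes subtracted.

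The cholesterol and fatty acid genes read differently with each siRNA, although both lowered SPOP alike. In 769-P the members together summed to 1462 FPKM in the control, 1137 with siRNA 1 and 1567 with siRNA 2. In DU145 the sums were 2049, 1964 and 3409 FPKM. In both lines siRNA 1 gave the lowest sum and siRNA 2 the highest. In bulk RNA, fewer cells that express a gene and less RNA per cell cannot be told apart. On the scale used from here on, log2(FPKM + 1), the median change of the 33 members against the control of the line was, for siRNA 1 and then siRNA 2, -0.47 and 0.11 in 769-P and -0.08 and 0.52 in DU145. The medians over all genes tested were 0.00 and -0.06 in 769-P and 0.07 and 0.12 in DU145. The siRNAs of a line share its single control library, so their changes against it are not independent, and the pseudocount of 1 understates the changes of low genes.

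**Figure D1:**
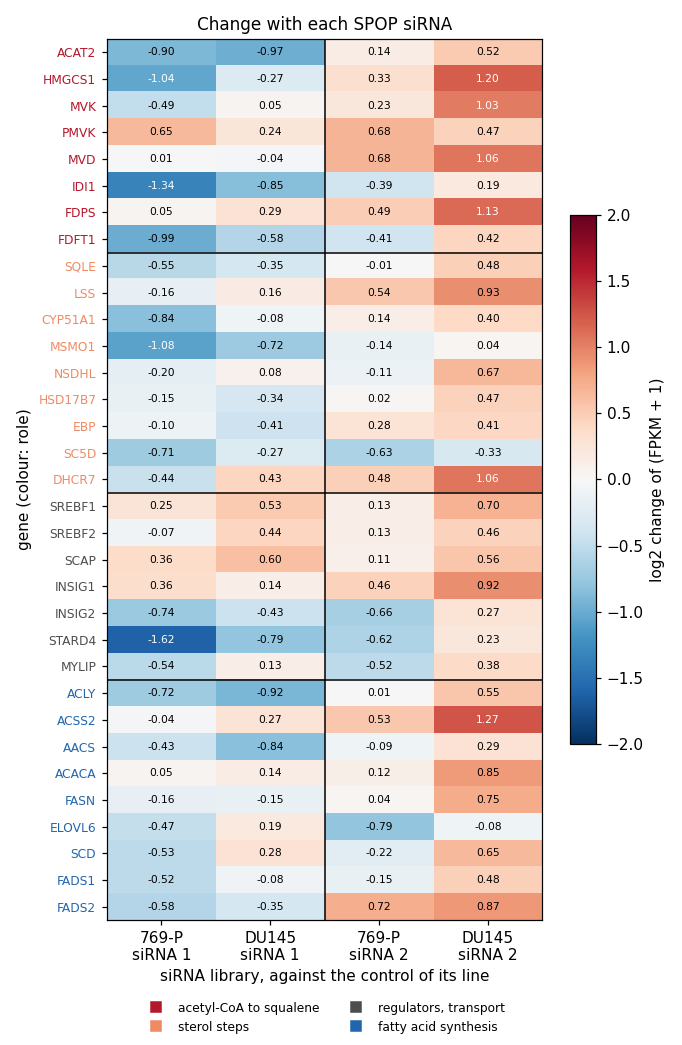
Change of each of the 33 genes on the log2(FPKM + 1) scale in each siRNA library against the control of its line, with gene names coloured by role, siRNA 1 in the left pair of columns and siRNA 2 in the right pair. Blue cells (lower than control) gather under siRNA 1, down to -1.62 for STARD4 in 769-P, and red cells (higher) under siRNA 2 in DU145, up to 1.27 for ACSS2.

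All 8 enzymes from acetyl-CoA to squalene were higher with siRNA 2 than with siRNA 1 in both lines, PMVK by only 0.03 in 769-P. Of the 8, only 2 (HMGCS1 and ACAT2) were below control with siRNA 1 and above it with siRNA 2 in both lines. HMGCS1, which condenses acetoacetyl-CoA to HMG-CoA, was at 14.7, 6.61 and 18.7 FPKM in the control, siRNA 1 and siRNA 2 libraries of 769-P, and at 25.4, 20.9 and 59.8 FPKM in those of DU145. ACAT2, the cytosolic thiolase that makes acetoacetyl-CoA, was at 36.6, 19.2 and 40.5 FPKM in 769-P and at 74.7, 37.5 and 108 FPKM in DU145. For both genes siRNA 1 was below control and siRNA 2 above it in each line, and siRNA 2 stood 2.11 to 2.87 times above siRNA 1. IDI1, the isomerase of isopentenyl diphosphate, was at 49.6, 19.0 and 37.6 FPKM in 769-P and at 56.8, 31.0 and 64.9 FPKM in DU145. FDFT1, the squalene synthase, was at 72.7, 36.1 and 54.7 FPKM in 769-P and at 123.6, 82.3 and 166 FPKM in DU145. These genes had their lowest value with siRNA 1 in both lines, but in 769-P siRNA 2 remained below control.

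MVD, which makes isopentenyl diphosphate, was at 50.8 FPKM in the 769-P control, 51.1 with siRNA 1 and 82.1 with siRNA 2, and at 72.8, 71.0 and 153 FPKM in DU145. FDPS, the farnesyl diphosphate synthase, was at 70.3, 72.7 and 99.4 FPKM in 769-P and at 155, 189.9 and 340.1 FPKM in DU145. Both stayed near control or above it with siRNA 1 and were higher with siRNA 2. MVK, the mevalonate kinase, was at 14.2, 9.84 and 16.9 FPKM in 769-P and at 24.9, 25.7 and 51.9 FPKM in DU145, where siRNA 2 gave 209% of control. PMVK, the next kinase, was at 12.1, 19.6 and 20.0 FPKM in 769-P and at 27.5, 32.7 and 38.4 FPKM in DU145, and so was above control with each siRNA in each line.

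The sterol steps after squalene had 8 of their 9 listed genes higher with siRNA 2 than with siRNA 1 in both lines. SQLE, which oxidises squalene, was at 67.0, 45.4 and 66.8 FPKM in 769-P and at 48.0, 37.5 and 67.5 FPKM in DU145. LSS, which closes the ring to lanosterol, was at 25.2, 22.3 and 37.1 FPKM in 769-P and at 65.1, 73.1 and 125 FPKM in DU145. In each line SQLE was lowest with siRNA 1, and LSS was highest with siRNA 2. CYP51A1, the lanosterol demethylase, was at 29.6, 16.1 and 32.8 FPKM in 769-P and at 40.1, 38.0 and 53.4 FPKM in DU145. MSMO1, the methylsterol oxidase, was at 28.9, 13.1 and 26.1 FPKM in 769-P and at 21.5, 12.7 and 22.1 FPKM in DU145. For MSMO1 siRNA 2 was near control in both lines, and siRNA 1 gave 45.6% and 58.9% of it.

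DHCR7, the last reductase of the pathway, was at 53.5, 39.1 and 75.1 FPKM in 769-P and at 161, 218 and 338 FPKM in DU145, so that siRNA 1 lay below control in 769-P and above it in DU145. NSDHL, a sterol dehydrogenase, was at 31.8, 27.5 and 29.3 FPKM in 769-P and at 20.2, 21.4 and 32.6 FPKM in DU145. HSD17B7, which reduces the sterol ketone, ranged from 9.24 to 10.5 FPKM in 769-P and from 11.3 to 20.4 FPKM in DU145, and EBP, the sterol isomerase, from 68.5 to 89.1 FPKM and from 67.4 to 120.3 FPKM. For NSDHL, HSD17B7 and EBP the range over the libraries was wider in DU145. SC5D, the desaturase of lathosterol, was the exception among the sterol enzymes, at 2.67, 1.24 and 1.37 FPKM in 769-P and at 8.12, 6.54 and 6.28 FPKM in DU145. It was below control in all 4 siRNA libraries, with a difference between the siRNAs of 0.08 in 769-P and -0.05 in DU145.

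**Figure D2:**
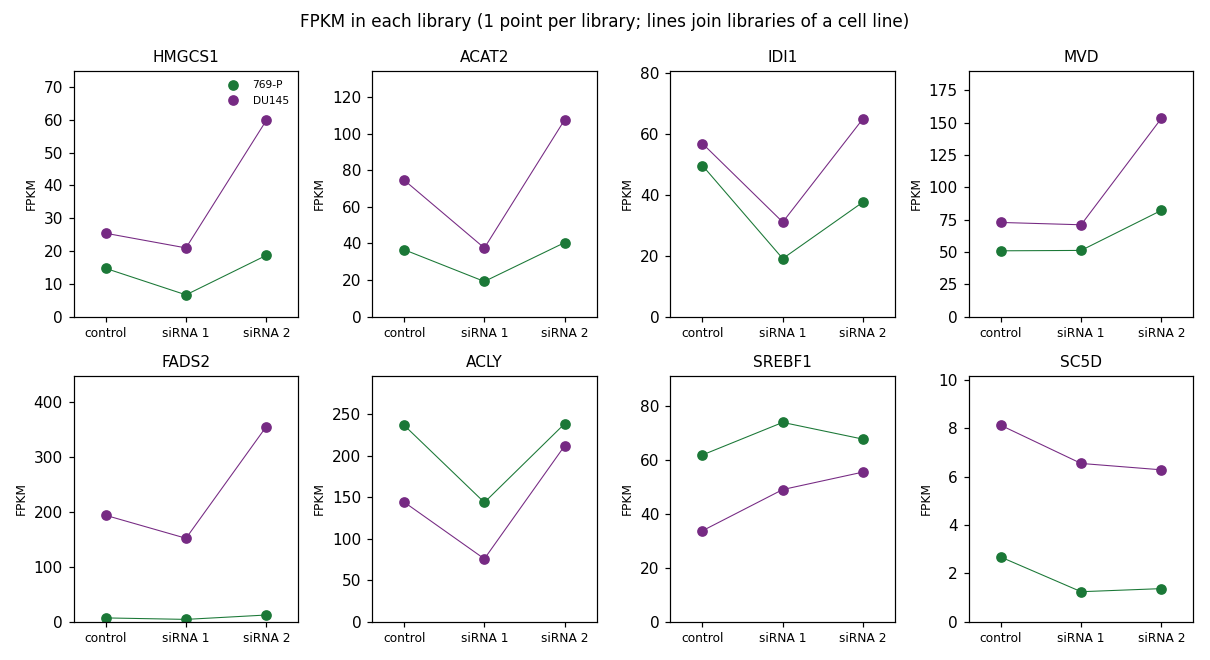
FPKM of 8 genes in the control, siRNA 1 and siRNA 2 library of each line, 1 point per library with lines joining the libraries of a line and each axis starting at 0. HMGCS1, ACAT2, FADS2 and ACLY dip with siRNA 1 and pass the control with siRNA 2 in both lines, ACLY in 769-P only just (100.7% of control). IDI1 and MVD also end higher with siRNA 2 than with siRNA 1, and SREBF1 and SC5D differ little between the siRNAs.

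The regulators and transport genes had 5 of 7 members higher with siRNA 2 in both lines, and their median difference between the siRNAs was 0.08 in 769-P and 0.25 in DU145, against 0.70 and 1.02 for the enzymes up to squalene. SREBF1 was at 62.0, 74.0 and 67.8 FPKM in 769-P and at 33.8, 49.1 and 55.6 FPKM in DU145, above control with each siRNA. SREBF2 was at 44.9, 42.7 and 49.2 FPKM in 769-P and at 58.2, 79.1 and 80.6 FPKM in DU145. SCAP was at 17.9, 23.3 and 19.4 FPKM in 769-P and at 19.3, 29.7 and 28.9 FPKM in DU145. In DU145 these 3 genes stood at 136% to 164% of control, and the siRNAs differed by at most 0.18 there. INSIG1, itself a known SREBP target, was at 49.0, 63.0 and 67.8 FPKM in 769-P and at 25.6, 28.3 and 49.4 FPKM in DU145. INSIG2 was at 3.44, 1.65 and 1.81 FPKM in 769-P and at 4.13, 2.80 and 5.18 FPKM in DU145. The INSIG genes thus moved apart in 769-P, with INSIG1 above control and INSIG2 at 48.1% and 52.6% of it.

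STARD4, a carrier of cholesterol between membranes, was at 5.28, 1.05 and 3.09 FPKM in 769-P and at 7.08, 3.66 and 8.48 FPKM in DU145. With siRNA 1 it kept 19.8% of its control level in 769-P and 51.7% in DU145, and its drop in 769-P was the largest of any member on this scale. MYLIP, a ubiquitin ligase of sterol balance, is known to be induced by LXR factors and not by SREBPs. It was at 1.25, 0.55 and 0.57 FPKM in 769-P and at 5.07, 5.63 and 6.91 FPKM in DU145, which is near the lower limit of the genes tested in 769-P.

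The fatty acid genes had 8 of 9 members higher with siRNA 2 than with siRNA 1 in both lines. ACLY, which splits citrate to cytosolic acetyl-CoA, was at 237, 144 and 239 FPKM in 769-P and at 144, 75.8 and 212 FPKM in DU145. FADS2, the first desaturase of long-chain polyunsaturated fatty acids, was at 7.09, 4.39 and 12.3 FPKM in 769-P and at 194, 152 and 355 FPKM in DU145. Their siRNA 1 libraries were the lowest of each line and their siRNA 2 libraries the highest, although FADS2 was 27.3 times higher in the DU145 control than in the 769-P control. FADS1, its neighbour on chromosome 11, was at 36.8, 25.3 and 33.1 FPKM in 769-P and at 80.6, 76.4 and 113 FPKM in DU145.

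FASN, the fatty acid synthase, was at 150.3, 134 and 155 FPKM in 769-P and at 147, 132 and 247 FPKM in DU145. ACACA, the carboxylase that makes its malonyl-CoA, was at 11.5, 12.0 and 12.6 FPKM in 769-P and at 11.9, 13.2 and 22.1 FPKM in DU145. Both were at 89.3% to 109% of control in 769-P and were more than 1.5-fold above it only with siRNA 2 in DU145. SCD, the stearoyl-CoA desaturase, was at 171, 118 and 146 FPKM in 769-P and at 245, 299 and 386 FPKM in DU145, below control in one line and above it in the other with each siRNA. ACSS2, which activates acetate, was at 2.88, 2.77 and 4.61 FPKM in 769-P and at 16.0, 19.5 and 39.8 FPKM in DU145, and AACS, which activates acetoacetate, was at 17.9, 13.0 and 16.7 FPKM and at 18.0, 9.59 and 22.2 FPKM. ELOVL6, the elongase of palmitate, went the other way, at 0.99, 0.43 and 0.15 FPKM in 769-P and at 10.2, 11.7 and 9.54 FPKM in DU145. ELOVL6 was lower with siRNA 2 than with siRNA 1 in both lines, but all of its 769-P values lay under 1 FPKM, the mean that the filter asked for.

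Counted at 1.5-fold on the log2(FPKM + 1) scale, the siRNAs shared 0 calls in the same direction in DU145 and 4 in 769-P. With siRNA 1, 10 members were lower than control in 769-P (9.84% of all genes tested were) and 6 in DU145 (7.42%). Shared by the lines were ACAT2, IDI1, MSMO1, STARD4 and ACLY, to which 769-P added HMGCS1, FDFT1, CYP51A1, SC5D and INSIG2 and DU145 added AACS. A single member was higher with siRNA 1 in each line, PMVK in 769-P (10.3%) and SCAP in DU145 (12.0%). With siRNA 2, 14 members were higher than control in DU145 (11.3%) and 0 were lower (3.73%). These were HMGCS1, MVK, MVD, FDPS, LSS, NSDHL, DHCR7, INSIG1, SREBF1, FASN, ACACA, SCD, FADS2 and ACSS2. In 769-P, siRNA 2 left 3 members higher, PMVK, MVD and FADS2 (6.15%), and 4 lower, SC5D, INSIG2, STARD4 and ELOVL6 (8.37%).

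Asking for both siRNAs to move a gene the same way left few members. In DU145, 0 members were 1.5-fold higher with both siRNAs (4.72% of all genes tested were) and 0 were lower (1.19%). SCAP was at 153.9% and 150.1% of its DU145 control in FPKM, and missed the call with siRNA 2 only through the pseudocount of 1. In 769-P, 1 member was higher, PMVK (3.60%), and 3 were lower, SC5D, INSIG2 and STARD4 (3.73%). After correction for transcript GC content and length none of the 4 genes was past 1.5-fold with both siRNAs. Against the control, GC content correlated with the change across 10537 genes with r = 0.29 and 0.34 for the 769-P siRNA libraries and 0.15 and 0.09 for those of DU145, whereas the difference between the siRNAs correlated with it by 0.02 in 769-P and -0.06 in DU145. Genes are not independent replicates, and these coefficients describe the libraries only.

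The difference between siRNA 2 and siRNA 1 uses no control library and can be read separately in each line. Its median over the 33 members was 0.38 in 769-P and 0.78 in DU145, against -0.07 and 0.05 over all genes tested. In both lines at once, 29 members (87.9%) were higher with siRNA 2, as were 28.0% of all genes tested, and the others were SC5D, SREBF1, SCAP and ELOVL6. At 1.5-fold or more in both lines, 12 members were higher with siRNA 2 (2.23% of all genes tested were) and 0 were lower (1.70%). The 12 were HMGCS1, ACAT2, MVK, MVD, IDI1 and FDFT1 of the route to squalene, LSS, MSMO1 and DHCR7 of the sterol steps, STARD4, and FADS2 and ACLY. At 2-fold 3 of them were left. Below control with siRNA 1 and above it with siRNA 2 in both lines were 8 members, HMGCS1, ACAT2, CYP51A1, HSD17B7, EBP, FASN, FADS2 and ACLY (24.2%, against 3.12% of all genes tested). That count sets no minimum size of change. With siRNA 2 in 769-P, ACLY, HSD17B7 and FASN were near control, at 100.7%, 101.7% and 103.0% of it.

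**Figure D3:**
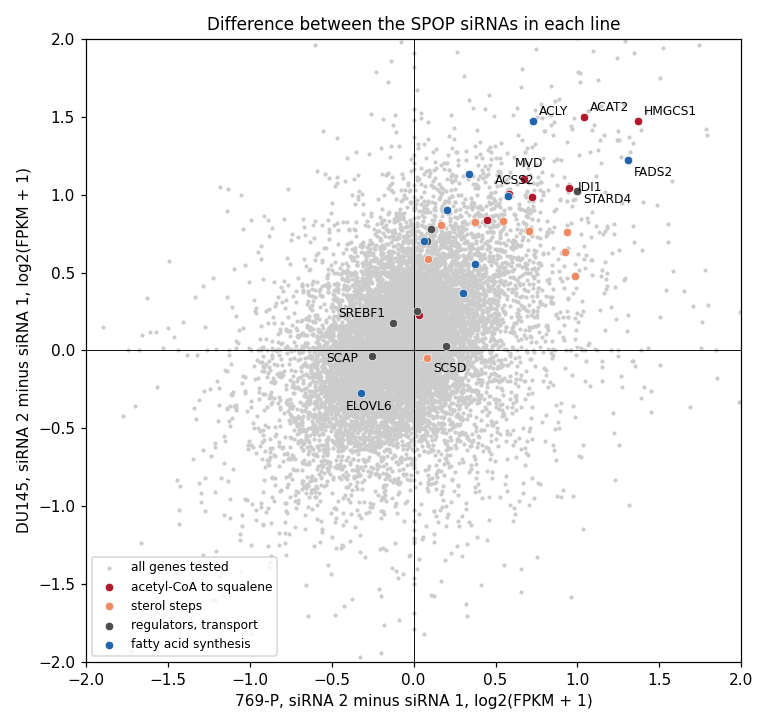
Difference between the siRNA 2 and siRNA 1 libraries on the log2(FPKM + 1) scale in 769-P (horizontal axis) and DU145 (vertical axis), with all genes tested in grey and the 33 genes coloured by role; 87 other genes lie beyond the axes, which end at 2 on each side. The coloured points gather above 0 on both axes, where 29 of them lie, with HMGCS1 and FADS2 farthest to the right.

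The next fit takes siRNA 1 and siRNA 2 to be the same siRNAs in both lines, which the sample titles give by number only. With cell line as a term, so that the lines served as repeats of each siRNA, limma with Benjamini-Hochberg adjustment over all genes called 90 genes different between the siRNAs (0.759% of those tested), 4 of them members. All 4 were higher with siRNA 2 in both lines. FADS2 (chr11:61560452-61634826 in GRCh37) differed by 1.26 (SE 0.16, limma adjusted p = 0.0203), ACAT2 (chr6:160183077-160200144) by 1.27 (SE 0.17, adjusted p = 0.0240), HMGCS1 (chr5:43287572-43313614) by 1.42 (SE 0.23, adjusted p = 0.0364) and ACLY (chr17:40023170-40086795) by 1.10 (SE 0.20, adjusted p = 0.0486). IDI1 followed with 0.99 (SE 0.19, adjusted p = 0.0540) and MVD with 0.89 (SE 0.17, adjusted p = 0.0575). At an unadjusted p under 0.05, 22 of the 33 members were higher with siRNA 2 and 0 were lower, where 13.8% of all genes tested passed in either direction. None of the 4 calls was left with no filter on low values, with no trend, or without either control library or either siRNA 2 library. Without the siRNA 1 library of 769-P or of DU145 the fit called 5 or 6 members, with genes averaging 5 FPKM or more it called 8, and with the olfactory receptor mean subtracted it called 7. Exons of ACAT2 overlap those of TCP1 by 454 bases and those of FADS2 overlap those of FADS1 by 490 bases on the opposite strand, and whether fragments were counted by strand is not given in the sources used here.

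Against the control, the same fit called 357 genes for siRNA 1 (3.01%), and 4 of them were members, all of which fell. IDI1 (chr10:1085092-1095059) fell by 1.09 (SE 0.19, limma adjusted p = 0.0263), ACAT2 fell by 0.94 (SE 0.17, adjusted p = 0.0321), MSMO1 (chr4:166248819-166264316) fell by 0.90 (SE 0.18, adjusted p = 0.0361) and STARD4 (chr5:110831731-110848288) fell by 1.21 (SE 0.26, adjusted p = 0.0471). ACLY, at -0.82 (adjusted p = 0.0634), and FDFT1, at -0.79 (adjusted p = 0.0738), missed the threshold. For siRNA 2 it called 36 genes (0.303%) and 0 members, with 11 members at an unadjusted p under 0.05, all higher. The lowest adjusted p was that of MVD, at 0.87 (SE 0.17, limma adjusted p = 0.0869), followed by FADS2 at 0.80 (adjusted p = 0.0900). The 4 calls for siRNA 1 were also lost without the filter on low values, without the trend, and without either control or either siRNA 2 library, and 3 members were called without the siRNA 1 library of either line. With siRNA 2, leaving out the siRNA 1 library of 769-P or of DU145 called 5 members.

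With the siRNAs of a line taken as replicates of the knockdown, limma called 16 genes in DU145 (0.135%) and 12 in 769-P (0.101%), and 0 members in either line. At an unadjusted p under 0.05 there were 2 members in DU145, SREBF1 at 0.61 and SCAP at 0.58, and 2 in 769-P, PMVK at 0.66 and SC5D at -0.67. SREBF1, the highest of these in DU145, had an adjusted p of 0.786 (limma). For HMGCS1 the SE of the change was 0.78 in each line, with changes of 0.47 in DU145 and -0.36 in 769-P, so that the spread between the siRNAs exceeded the mean change. SPOP itself, with changes of -2.15 in DU145 and -2.35 in 769-P, also missed the threshold in this fit. A count of 0 members therefore does not show the members to be unaltered. The difference of the knockdown between the lines was called for 20 genes (0.169%) and 0 members, and 0 members had an unadjusted p under 0.05.

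Between the lines the members were called about as often as genes in general in the fit with the siRNAs of a line as replicates. The spread of that fit is the difference between the siRNAs, in which the members stood apart. A member could miss the threshold through it. Over control and knockdown, limma called 14 of the 33 members, a share near that of all genes tested (42.1%), with 12 higher in DU145 and 2 higher in 769-P. FADS2 differed most, by 4.68 (SE 0.49, limma adjusted p = 0.00156), followed by ELOVL6 at 2.83 (SE 0.20, adjusted p = 0.000528), ACSS2 at 2.39 (SE 0.34, adjusted p = 0.00420) and DHCR7 at 1.94 (SE 0.32, adjusted p = 0.00703). The other genes higher in DU145 were MYLIP, LSS, SC5D, FADS1, FDPS, PMVK, SCD and SREBF2, by 0.58 to 1.82. ELOVL6 and MYLIP averaged 0.52 and 0.79 FPKM in 769-P and 10.5 and 5.87 FPKM in DU145. They passed the filter of 1 FPKM only through DU145, so their calls are no support for a difference between the lines. SREBF1 was lower in DU145 by 0.64 on the log2 scale (a difference of -0.64, SE 0.15, limma adjusted p = 0.0201) and INSIG1 had a difference of -0.85 (SE 0.25, adjusted p = 0.0431). The genes for SREBP1 and SREBP2 therefore stood in opposite order in the lines, with SREBF1 above SREBF2 in every 769-P library and below it in every DU145 library. Over the alternatives run, the difference between the lines was 0.21 to 0.63 for SREBF2 and -1.11 to -0.60 for SREBF1. The SREBF2 call was lost whichever siRNA library was left out, and the calls of SREBF1 and INSIG1 were lost with some of them. For 17 members (51.5%), ELOVL6 and MYLIP among them, every DU145 library was above every 769-P library, as for 35.1% of all genes tested. For SREBF1 (3.03%) every DU145 library was below every 769-P library, as for 21.2%. Without the 769-P siRNA 1 or siRNA 2 library 7 or 9 members were called, and with no filter on low values 9.

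**Figure D4:**
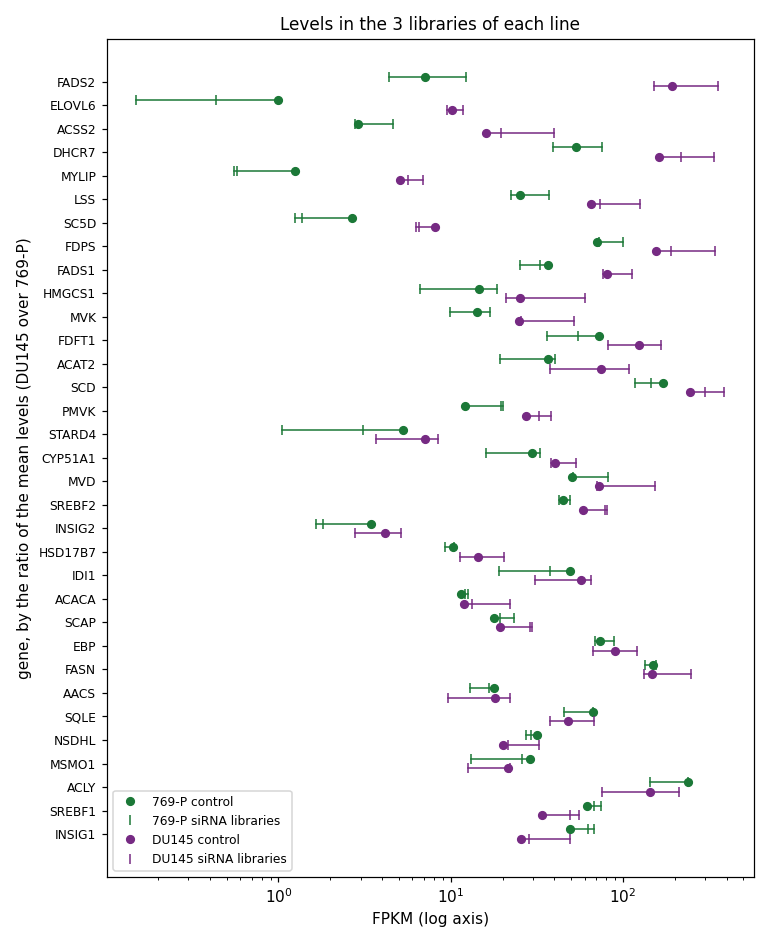
FPKM on a log axis for the 33 genes in 769-P (green) and DU145 (purple), with the control as a filled point, the siRNA libraries as ticks and a line over the range of the 3 libraries, ordered by the ratio of the mean levels. FADS2, at 4.39 to 12.3 FPKM in 769-P and 152 to 355 FPKM in DU145, is farthest apart at the top, and SREBF1 and INSIG1 at the bottom are the genes called higher in 769-P.

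Within a line the order of the levels was led by the fatty acid genes. In 769-P the highest controls were those of ACLY at 237 FPKM, SCD at 171 and FASN at 150.3, and the lowest those of MYLIP at 1.25 and ELOVL6 at 0.99. In DU145 they were SCD at 245, FADS2 at 194, DHCR7 at 161, FDPS at 155, FASN at 147 and ACLY at 144 FPKM, and the lowest were MYLIP at 5.07 and INSIG2 at 4.13. Each of these neighbours overlapped the next in the range of its 3 libraries. AACS and FASN had nearly equal controls in the lines, with ratios of DU145 to 769-P of 1.01 and 0.975.

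Genes next to the pathway, from lists chosen with earlier results of these data known, were counted the same way: 28.0% of all genes tested were higher with siRNA 2 than with siRNA 1 in both lines. Of 7 genes for SREBP processing and sensing, 4 were so, as were 3 of 8 other isoprenoid and sterol enzymes, 9 of 14 other genes of fatty acid and lipid synthesis, 4 of 14 fatty acid oxidation genes and 3 of 5 for sterol uptake and lysosomal release, where the members gave 29 of 33. MBTPS1, the protease that makes the first cut in SREBPs, was at 20.4, 46.4 and 42.8 FPKM in DU145 and at 17.3, 30.5 and 25.6 FPKM in 769-P. It was more than 2-fold above control with both siRNAs in DU145, and it rose with siRNA 1 over both lines by 0.96 (SE 0.18, limma adjusted p = 0.0327). LBR, which encodes a sterol reductase of the nuclear envelope, was at 26.7, 8.05 and 14.0 FPKM in 769-P and at 22.5, 10.5 and 20.4 FPKM in DU145, and fell by 1.33 with siRNA 1 (SE 0.21, limma adjusted p = 0.0220). PDSS1, which makes the side chain of ubiquinone, was at 20.6, 10.9 and 11.5 FPKM in 769-P. With LBR it was 1.5-fold lower with both siRNAs there.

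HSD17B12, a ketoacyl-CoA reductase of fatty acid elongation, behaved like the members, at 44.8, 13.6 and 37.1 FPKM in 769-P and at 11.1, 4.66 and 14.1 FPKM in DU145. It fell by 1.37 with siRNA 1 (SE 0.20, limma adjusted p = 0.0161) and was 1.40 higher with siRNA 2 than with siRNA 1 (SE 0.20, adjusted p = 0.0290). ELOVL7 and GPAM were 1.5-fold lower with both siRNAs in 769-P, ELOVL7 at 5.35, 2.13 and 2.93 FPKM and GPAM at 2.75, 1.48 and 1.36 FPKM. Among the oxidation genes ETFB, an electron carrier, was at 37.2, 63.1 and 79.1 FPKM in DU145 and CPT1A, which admits fatty acids to the mitochondrion, at 11.2, 6.10 and 6.33 FPKM, 1.5-fold higher and lower with both siRNAs. ACAA2, the last thiolase of oxidation, was the 1 oxidation gene called between the siRNAs, by 1.25 (SE 0.22, limma adjusted p = 0.0432). NPC1, which exports cholesterol from lysosomes, rose by 0.71 with siRNA 1 (SE 0.16, limma adjusted p = 0.0476).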

How the data were processed

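RNA-Seq was performed on 6 libraries of polyadenylated RNA from DU145 and 769-P cells. Per the study's methods and the labels, the authors trimmed 100-bp paired-end reads after FastQC with cutadapt, used TopHat2 for mapping to hg19 and Cufflinks to estimate FPKM, the deposited unit, with 1 value per gene row and library. Versions, annotation and use of strand are not given in the sources used here. The methods describe 2 replicates per sample and a different kit from the labels, in which every siRNA and control has a single library.

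Values under the same symbol were summed from 26006 rows per file, and 1 was added before log2. Groups were taken from the sample titles, and 0 per-sample columns were left unused. limma 3.58.1 (R 4.3.3), with eBayes and a trend on mean expression, was fitted across all genes averaging at least 1 FPKM, once with 4 groups (line by knockdown) and once with line and siRNA as terms, with Benjamini-Hochberg adjustment and a threshold of 0.05. The fit was also run on simulated data as a check of the code, and no result here rests on that run. Tables and plots were made with Python 3.11.15, pandas 2.3.3, numpy 2.4.6 and matplotlib 3.10.9. Positions are from the GENCODE annotation of GRCh37. The members, the other lists and the tests were chosen with earlier results of these data known. The genes named are all members, SPOP, the markers and, of the other lists, those past 1.5-fold with both siRNAs of a line. The results for some of the markers are not reported here. HSD17B12, ACAA2, NPC1 and the limma value of MBTPS1 and LBR were added once their values had been seen. Alternative settings comprised a pseudocount of 0.1, no filter or 5 FPKM, quantile normalization, median-centred changes, no trend, a replicate block, 2-fold and single libraries left out. Median-centred libraries in limma, correction for transcript GC and length (88.8% of the genes tested had a value, with all 33 members), subtraction of the olfactory receptor mean, and leaving out single libraries in the fit with line and siRNA were added after the data were seen.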

Additional observations from a re-analysis of the deposited data

Results flagged for a closer look

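NSDHL, SCD and MYLIP were above control with both siRNAs in DU145 and below control with both siRNAs in 769-P. The mean change in DU145 was higher than that in 769-P by 0.53 for NSDHL, 0.84 for SCD and 0.78 for MYLIP on the log2(FPKM + 1) scale. The test of this difference did not pass for any of the 3 genes (limma, adjusted p = 0.999 for each).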

How the results depend on the processing

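No value past its threshold changed direction under the alternatives run. Among the comparisons and counts, 157 alternative values stayed within 1.5 times, or within the spread between the siRNAs for the medians, and 95 did not. Among the values of single genes, 605 stayed on their side of the threshold or within that spread, 23 moved by more, 34 passed a threshold they had missed and 91 no longer passed one. The medians of the members moved by less than the spread between the siRNAs in every alternative. With 1 library per control and few degrees of freedom, and with depth unknown, a gene that missed the threshold is not shown to be unaltered.

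Over all genes, with no filter on low values limma called 678 genes in DU145, 6 in 769-P, 326 for the difference between the lines, 38 for siRNA 1, 3 for siRNA 2 and 5 for siRNA 2 against siRNA 1, and of the members 9 for the level between the lines and 0 for siRNA 1 and for siRNA 2 against siRNA 1. With a mean of at least 5 FPKM it called 4 genes in DU145, 3 for the difference between the lines, 3261 for the level, 695 for siRNA 1, 147 for siRNA 2 and 208 between the siRNAs, with 2 members for siRNA 2 and 8 between the siRNAs. Without the trend it called 31, 6 and 4 genes for siRNA 1, siRNA 2 and their difference, and 0 members for siRNA 1 and for the difference. Quantile normalization gave 10 genes for the difference between the lines, 5 for siRNA 2 and 20 between the siRNAs, 2 of them members. Median-centred libraries gave 235, 4 and 21 genes for siRNA 1, siRNA 2 and their difference, with 2 members in the last. Correction for GC and length gave 8 genes for the difference between the lines, 220 for siRNA 1 and 5 for siRNA 2. With the olfactory receptor mean subtracted there were 595, 132 and 179 genes for siRNA 1, siRNA 2 and their difference, with 3 members for siRNA 2 and 7 between the siRNAs. A pseudocount of 0.1 gave 0 genes for the difference between the lines.

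Of the members past 1.5-fold with both siRNAs, the DU145 count of 0 higher became 1 with the olfactory mean subtracted. The 769-P count of 1 higher became 0 after GC and length correction and at 2-fold, and that of 3 lower became 5 with a pseudocount of 0.1, 1 with median-centred changes and 0 with quantile normalization, GC and length correction or 2-fold. The 12 members 1.5-fold higher with siRNA 2 than with siRNA 1 in both lines became 3 at 2-fold.

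Leaving out each of the 4 siRNA libraries in turn, a lone library being assumed to vary like the other groups, gave 0 to 30 genes in DU145, 0 to 7 in 769-P, 0 to 37 for the difference between the lines and 2763 to 3892 for the level. In the fit with line and siRNA, leaving out each of the 6 libraries gave 1 to 304 genes for siRNA 1, 9 to 303 for siRNA 2 and 2 to 223 between the siRNAs. Among the members these settings gave 7 to 13 for the level, 0 to 3 for siRNA 1, 0 to 5 for siRNA 2 and 0 to 6 between the siRNAs. At 1.5-fold, siRNA 1 or siRNA 2 alone left 1 to 14 members higher and 0 to 6 lower in DU145, and 1 to 3 higher and 4 to 10 lower in 769-P.

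The lines share the siRNA numbers. Across genes, the difference between siRNA 2 and siRNA 1 correlated between the lines with r = 0.27, but 2 pairs are too few to show that the numbers pair the libraries. When a replicate block for the number was added, limma called 18 genes in DU145, 14 in 769-P, 8 for the difference between the lines and 5977 for the level, and 22 members for the level against 14 without it.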
